A study of Mus musculus with 4 samples.

Results

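The surface proteins that sorting schemes use to divide mouse hematopoietic stem and progenitor cells are described here by their transcripts. The 7 genes are Ly6a, Cd34, Cd48, Slamf1, Cd27, Esam and Ptprc, taken by symbol from the 31053 genes measured, and all 7 were found under 1 identifier each. Mouse marrow was measured as single cells in droplets (10x Chromium, 3′ kit of version 3), with 4 libraries and 1 per group. The KLS sort takes lineage-negative, c-Kit-positive, Sca-1-positive cells, here from mice of 8 to 12 weeks, with the genotype Vav1-Cre/+STAT5abfl/fl (STAT5 KO) or Vav1-Cre/+STAT5ab+/+ (control). The control therefore carries the same Cre transgene, whose Vav1 promoter is active in blood cells. The labels state 4 mice for these cells without saying whether that is per genotype, and give no batch or identity of single mice. The other 2 libraries, called MSC here, hold CD45-depleted stromal cells sorted for Sca-1 and CD140a from mice of 6 to 8 weeks of the same genotypes. With 1 library per group no test between genotypes was possible. Every interval below is a 95% interval of counting error only and says nothing about differences between mice or preparations.

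KLS cells hold the blood-forming stem cells together with multipotent progenitors that already lean towards lymphoid, myeloid or megakaryocyte fates. CD150, encoded by Slamf1, is kept on long-term stem cells and on megakaryocyte-leaning progenitors, while CD48, encoded by its relative Cd48, appears as cells leave the stem state, so the pair is used to split the gate. CD34 and CD27 mark progenitors with less lasting repopulating ability, ESAM is an adhesion protein enriched on stem cells and endothelium, Ly6a encodes Sca-1, and Ptprc encodes CD45, the tyrosine phosphatase of nearly all blood cells. STAT5A and STAT5B carry signals from cytokine receptors to the nucleus.

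In the KLS control library 3747 barcodes carried 55138419 counts of unique molecular identifiers (UMIs), and in STAT5 KO 7511 barcodes carried 82466835. After filtering, 3085 and 6726 cells were kept, with medians of 15136 and 10085 UMIs. The 2 KLS libraries shared 290 barcodes, and between 158 and 227 barcodes were shared by a KLS and an MSC library. Barcodes with more UMIs in another library were left out, which removed 369 control and 261 STAT5 KO cells. Stat5a and Stat5b together stood at 129.4 CPM (counts per 1000000 UMIs) in control against 11.2 in STAT5 KO, in the direction of the labels. Kit was at 210.1 and 177.7 CPM, 6 stromal markers summed to 1.27 and 1.66 CPM with Pdgfra at 0 in both, and 8 markers of mature lineages summed to 14.3 and 12.9 CPM with Cd8a and Ly6g at 0 in both. The sorted KLS label was thus borne by the transcripts.

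None of the 7 genes passed a 1.5-fold difference between the KLS libraries (ratio of CPM + 1), which 3.6% of 12848 genes with at least 50 UMIs did. By the looser rule that the counting interval of the log2 ratio leaves out 0, 5 of the 7 were lower in STAT5 KO (Esam, Ly6a, Slamf1, Cd34 and Cd27) and none was higher. At this depth that rule calls 30.2% of all genes lower, 28.9% higher and 59.2% in either direction, so an interval that leaves out 0 is common, and more so for well-counted genes such as Cd34, Cd27 and Ly6a. The sizes differ more between the genes than the calls do. Only 3.86% of tested genes had a lower ratio than Esam and 6.36% a lower ratio than Ly6a, whereas Ptprc and Cd48 lay beside the median of all genes, which was -0.01.

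**Figure D1:**
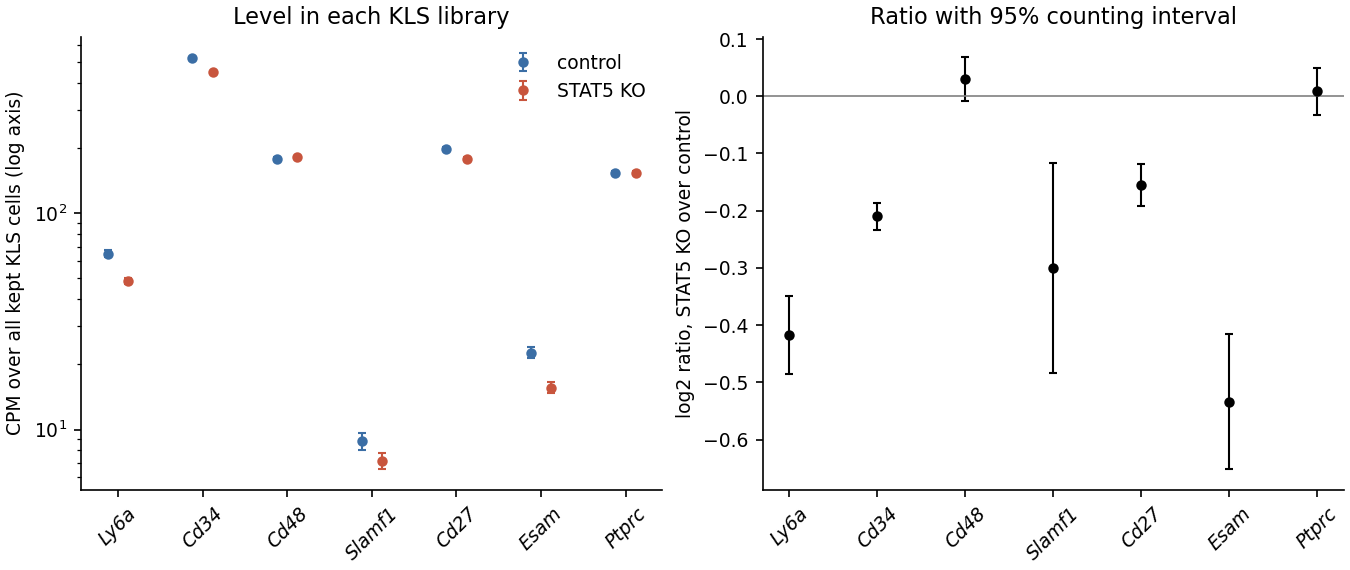
Left, CPM of each gene over all kept KLS cells on a log axis, control in blue and STAT5 KO in red, with exact Poisson 95% intervals. Right, the log2 ratio of STAT5 KO over control with its 95% counting interval. Esam, at -0.53, and Ly6a, at -0.42, lie lowest, and the intervals of Cd48 and Ptprc include 0.

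Ly6a is the transcript of a gate protein: each cell had been sorted for Sca-1, so its level is conditioned by the sort in both libraries. It lies at chr15:74994877-74998031 on the minus strand (GENCODE M21, GRCm38). Control gave 65.2 CPM (interval 63.0 to 67.4), and STAT5 KO gave 48.8 CPM (47.2 to 50.4). The log2 ratio was -0.42 (-0.49 to -0.35), and the 2 levels' intervals were far apart. A UMI of Ly6a was present in 50.1% of control cells and 35.0% of STAT5 KO cells at full depth. With each cell thinned to 4600 UMIs (3058 control and 6068 STAT5 KO cells, with 27 and 658 shallower cells left out), the shares were 25.8% (24.3 to 27.4) and 19.4% (18.5 to 20.5). Most sorted Sca-1-positive cells of both libraries thus showed no Ly6a UMI at this depth, which is not absence of the protein. The variance of thinned counts over their mean, which is 1 for counts that scatter by chance alone, was 1.68 in control and 1.35 in STAT5 KO. At full depth, where control cells were the deeper (medians of 15136 and 10085 UMIs), the highest control cell held 29 UMIs and cells with more than 5 UMIs held 17.4% of the total, against 17 UMIs and 5.12% in STAT5 KO.

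Cd34, a sialomucin of progenitors and endothelium, lies at chr1:194938819-194961279 on the plus strand, and the antisense gene Gm16897 overlaps it. The control level was 520.3 CPM (514.1 to 526.6), against 449.9 CPM (445.1 to 454.6) in STAT5 KO, a log2 ratio of -0.21 (-0.23 to -0.19). Thinned, 84.7% and 80.8% of cells had a UMI, so the gene was detected in most KLS cells of both genotypes. Cd27, a receptor of the tumor necrosis factor family, lies at chr6:125232622-125237010 on the minus strand and overlaps Vamp1 on the other strand and Mir8113. It stood at 198.6 CPM (194.8 to 202.5) and 178.3 CPM (175.4 to 181.4), a log2 ratio of -0.16 (-0.19 to -0.12). The thinned shares were 56.9% and 54.2%, with intervals that overlap narrowly. The Cd34 and Cd27 log2 ratios reversed to 0.28 and 0.0151 when each cell's full-depth count is capped at 5 UMIs, a cap that takes more from the deeper control cells. With thinned counts capped at 5 UMIs they were -0.20 and -0.14.

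Ptprc and Cd48 differed little between the libraries. Ptprc (chr1:138062861-138175708, minus strand, overlapped by A130071D04Rik) gave 153.2 CPM (149.8 to 156.6) for control, against 154.1 CPM (151.3 to 156.9) for STAT5 KO, a log2 ratio of 0.01 (-0.03 to 0.05). Cd48 (chr1:171682009-171705258, plus strand, overlapped by Gm37010) stood at 177.9 CPM (174.3 to 181.6) and 181.6 CPM (178.6 to 184.7), a log2 ratio of 0.03 (-0.01 to 0.07). These intervals put each difference, in these 2 libraries, well under the 1.5-fold threshold. At full depth fewer STAT5 KO than control cells had a Cd48 UMI, 70.1% against 73.1%, but thinned the order was the other way, 50.5% (49.2 to 51.7) against 47.8% (46.0 to 49.6). The thinned difference was 2.69 percentage points (0.51 to 4.86), and with another seed, with doublets kept and with all shared barcodes kept it was 4.60, 4.49 and 3.62 points, with intervals above 0. At 2000 UMIs it was 1.11 points, with an interval that includes 0. The share without thinning goes against the level, so no order is read from it.

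Esam and Slamf1 were the 2 sparse genes. Esam lies at chr9:37528078-37538319 on the plus strand. Control cells held 22.6 CPM (21.4 to 24.0), against 15.6 CPM (14.8 to 16.6) for STAT5 KO, a log2 ratio of -0.53 (-0.65 to -0.42). Thinned, a UMI was seen in 10.4% (9.37 to 11.6) of the control library and 7.12% (6.48 to 7.80) of STAT5 KO. Its highest cell held 6 UMIs in control and 5 in STAT5 KO, so the difference did not rest on a few high cells.

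Slamf1 lies at chr1:171767127-171801184 on the plus strand, 61868 bases beyond the end of Cd48. It gave 451 UMIs in control and 547 in STAT5 KO, or 8.82 CPM (8.02 to 9.67) and 7.16 CPM (6.57 to 7.79), a log2 ratio of -0.30 (-0.48 to -0.12). At full depth 6 control cells with more than 5 UMIs, the highest with 23, held 15.3% of all Slamf1 UMIs, and no cell of the shallower STAT5 KO library exceeded 5. With full-depth counts capped at 5 UMIs per cell the log2 ratio was -0.17 with an interval that includes 0 (-0.36 to 0.02). Thinned counts, which weight cells equally, had means of 0.0405 and 0.0399 UMIs per cell without a cap, and with the cap their log2 ratio was -0.0240 (-0.34 to 0.30). The share of cells with a UMI was 9.63% and 5.77% at full depth, and 3.50% (2.88 to 4.21) and 3.33% (2.89 to 3.81) after thinning. The difference in the thinned share depended on the setting: it was -0.17 percentage points (-0.96 to 0.62) as given, -0.74 (-1.55 to 0.06) with another seed, -0.98 (-1.78 to -0.18) with doublets kept and -1.62 (-2.72 to -0.53) at 8000 UMIs.

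**Figure D2:**
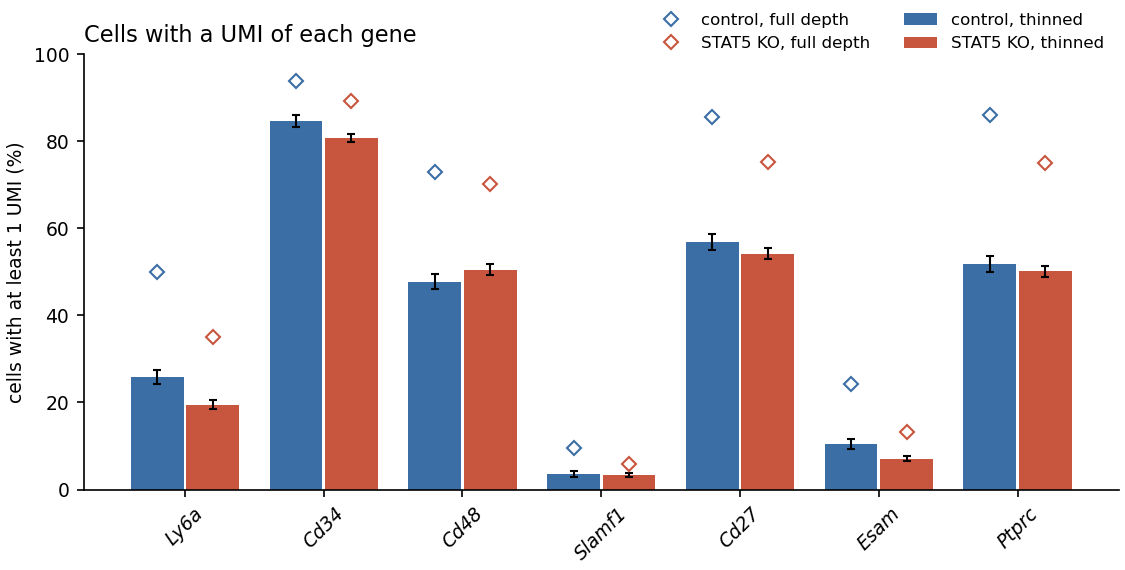
Percent of KLS cells with at least 1 UMI of each gene. Bars are cells thinned to 4600 UMIs with exact 95% intervals, and open diamonds are all kept cells at full depth. At full depth all 7 control shares are higher, and after thinning the bars of Ly6a, Cd34 and Esam keep intervals apart with control higher at this depth.

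The Cd34 and Esam share differences were not apart from 0 at every depth. At 8000 UMIs that of Cd34 was -1.06 percentage points (-2.39 to 0.27), and at 2000 UMIs that of Esam was -0.77 (-1.64 to 0.09).

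STAT5 KO cells were not uniform in their Stat5 transcripts, and the 2 sparse genes followed that split. Of the STAT5 KO cells at or above the thinning depth, 430 held a Stat5a or Stat5b UMI and 5638 held none, at medians of 10763 and 10874.5 UMIs. Slamf1 stood at 38.9 CPM in the cells with such a UMI and 4.49 CPM in those without, a log2 ratio of 3.12 (2.86 to 3.37), and Esam at 59.4 and 11.6 CPM, a log2 ratio of 2.35 (2.16 to 2.54). Cd34 (245.4 and 466.4 CPM), Cd48 (105.1 and 189.1 CPM) and Cd27 (109.4 and 183.9 CPM) were on the other side, and Ly6a was nearly equal at 47.3 and 48.0 CPM. When only the 6272 of 6726 STAT5 KO cells with no Stat5 UMI were compared with control, Slamf1 and Esam had lower log2 ratios. These were -0.94 (-1.15 to -0.73) for Slamf1 and -0.90 (-1.03 to -0.78) for Esam. The selection takes out the STAT5 KO cells in which these 2 genes stood higher. Control cells were not selected in this way.

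Cell states were set on thinned counts by genes that are not among the 7. Cells with Hlf, Mecom and Procr together are called stem triad cells, after 3 genes of the stem cell program. Cells with at least 2 UMIs of Dntt, which adds bases to antigen receptor joints, or of Pf4, a platelet chemokine, form 2 further states. Cells with both Klf1 and Gata1 carry the erythroid pair, and cells with Mpo, Elane and Prtn3 carry granule enzymes. The stem triad held 137 control cells (4.48%) and 130 STAT5 KO cells (2.14%), Dntt 796 and 1798, Pf4 68 and 177, the erythroid pair 18 and 45, the granule triad 47 and 127, several gates 10 and 45, and no gate 1982 and 3746. The states differed in depth, with medians from 8099 UMIs in stem triad to 22274 in granule triad cells of control, and from 7360.5 to 17435 in STAT5 KO.

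Each gene had its own profile over these states, given here as control and then STAT5 KO. Ly6a was highest in stem triad cells, at 119.8 and 83.7 CPM, and low in cells with the erythroid pair, at 12.6 and 17.1 CPM, and in Pf4 cells, at 38.5 and 15.2 CPM. Cd34 was highest in Dntt cells, at 618.1 and 521.9 CPM, above the granule triad at 459.3 and 372.8 CPM, and stood at 157.1 and 149.1 CPM in Pf4 cells. Cd27 was also highest in Dntt cells, at 252.2 and 223.6 CPM. These 2 progenitor markers were low in the erythroid pair, at 66.7 and 59.8 CPM for Cd34 and 21.6 and 24.2 CPM for Cd27.

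Cd48 was lower in the stem triad and Pf4 states than in most others. It stood at 88.3 and 99.1 CPM in stem triad cells and 54.0 and 50.7 CPM in Pf4 cells, against 197.2 and 197.5 CPM in Dntt and 244.3 and 220.4 CPM in granule triad cells. Esam was highest in these 2 states, with 58.0 (46.6 to 71.3) and 50.4 (38.4 to 65.0) CPM in stem triad cells, 44.2 and 38.6 CPM in Pf4 cells, and 4.61 and 2.88 CPM in Dntt cells. In the erythroid pair both genes were low, Cd48 at 55.9 and 59.8 CPM and Esam at 3.61 and 4.27 CPM. The stem triad and Pf4 levels of Esam have overlapping intervals in each library. Slamf1 was highest in control in Pf4 cells, at 26.2 CPM (17.9 to 37.0), and lowest in Dntt cells, at 2.65 CPM. Thinned, 0.754% of control and 0.945% of STAT5 KO Dntt cells had a Slamf1 UMI and 1.51% and 1.67% an Esam UMI. Before thinning these cells had medians of 15842 and 11118 UMIs. The Slamf1 shares of other states were not all as low, though their intervals are wide. They were 6.38% (1.34 to 17.5) and 0.787% (0.0199 to 4.31) in granule triad cells. In the erythroid pair they were 5.56% (0.141 to 27.3) and 4.44% (0.543 to 15.1). Ptprc was of similar level in stem triad (172.6 and 173.4 CPM), Dntt (164.7 and 172.2 CPM) and no-gate cells (152.9 and 148.5 CPM). It was lower in the granule triad (125.3 and 104.5 CPM), Pf4 cells (90.0 and 118.8 CPM) and the erythroid pair (48.7 and 59.8 CPM), and in Pf4 cells its log2 ratio was 0.40 (0.08 to 0.73).

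**Figure D3:**
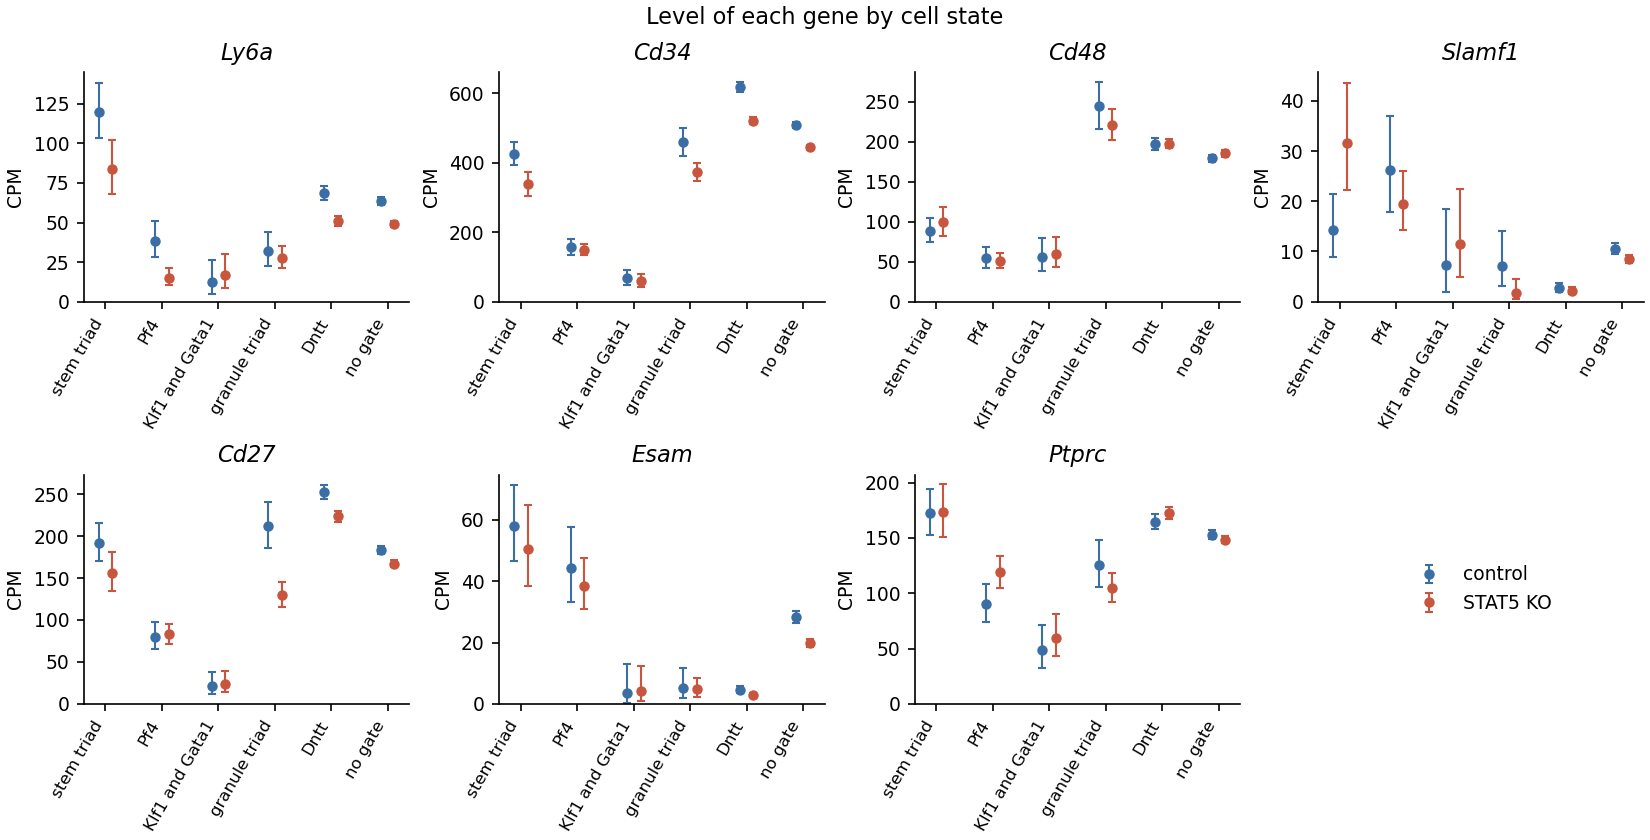
CPM of each gene in 6 cell states gated on other genes, control in blue and STAT5 KO in red, with exact Poisson 95% intervals and a separate linear axis from 0 for each gene. Cd48 is low in the stem triad and Pf4 states, where Esam is high, and both are low in the erythroid pair. Slamf1 in stem triad cells is the only panel position where STAT5 KO stands above control with the intervals apart.

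Within the states the genotype differences kept the direction of the whole library for most genes. The counting interval left out 0 for 4 of 7 genes in stem triad cells, where 16.1% of 7267 genes did, for 4 of 7 in Dntt cells (41.4% of 11164 genes) and for 5 of 7 in no-gate cells (54.2% of 12317 genes). It did so for 2 of 7 in Pf4 cells (15.8%), 3 of 7 in granule triad cells (17.6%), 3 of 7 in cells with several gates (18.1%) and 0 of 7 in the erythroid pair (19.4%). Ly6a was lower in STAT5 KO by this rule in 5 of the 7 states, with log2 ratios of -0.52 (-0.89 to -0.16) in stem triad, -0.43 (-0.56 to -0.30) in Dntt and -1.34 (-2.02 to -0.68) in Pf4 cells. With the Dntt and Pf4 gates at 3 UMIs the value in Pf4 cells was -0.93, with an interval that includes 0 (-1.88 to 0.04). Cd34 and Cd27 were likewise lower in 5 of 7 states each. Esam was lower by this rule in 2 of 7 states, Dntt and no-gate cells. In the states where Esam was highest its intervals included 0, at -0.20 (-0.70 to 0.29) in stem triad and -0.20 (-0.70 to 0.32) in Pf4 cells. The interval of Cd48 included 0 in all 7 states.

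Slamf1 in stem triad cells went the other way. It gave 22 UMIs in control and 37 in STAT5 KO, or 14.2 CPM (8.88 to 21.5) and 31.6 CPM (22.3 to 43.6), a log2 ratio of 1.16 (0.36 to 1.99). Thinned, 7.30% (3.56 to 13.0) of control and 14.6% (9.03 to 21.9) of STAT5 KO stem triad cells had a Slamf1 UMI, intervals that overlap. In no-gate cells the log2 ratio was -0.31 (-0.53 to -0.10) and in granule triad cells -2.03 (-4.21 to -0.13), the latter on 8 and 4 UMIs. In the erythroid pair it was 0.66, with an interval that includes 0 (-1.24 to 2.84). Stem triad cells of STAT5 KO also kept more Stat5 transcript than other states, at 42.7 CPM against 142.4 CPM in control. Among stem triad cells with no Stat5 UMI, Slamf1 stood at 21.3 CPM (8.58 to 44.0, 7 UMIs) in 41 control cells and 23.3 CPM (14.4 to 35.6, 21 UMIs) in 96 STAT5 KO cells. The part of the remaining Stat5 transcript in the higher Slamf1 level was not tested. The gate genes were themselves lower in STAT5 KO over all kept cells. Hlf stood at 261.4 CPM in control and 163.9 in STAT5 KO, Mecom at 65.9 and 57.8, and Procr at 21.3 and 13.2. Whether the gate takes like cells from both libraries was not tested.

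STAT5 KO cells were weighted to the state shares of control, among cells at or above the thinning depth. The log2 ratios were then -0.40 for Ly6a, -0.21 for Cd34, -0.16 for Cd27 and -0.47 for Esam. Unweighted, the same cells gave -0.43, -0.21, -0.16 and -0.57. The ratio of Slamf1 was -0.19 weighted and -0.31 unweighted. The 5 lower genes kept their sign at this weighting, and the weighted ratios have no interval. No-gate cells, 64.8% of control and 61.7% of STAT5 KO, entered as a single state. Whether shares of cell types account for the differences was not tested.

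Co-detection within single cells was read from the 21 pairs of genes, setting the share of thinned cells with both against the product of the 2 shares. The interval lay above the product for 3 pairs in control and 8 in STAT5 KO, below it for 6 and 5, and included it for 12 and 8. Slamf1 and Esam were found together most in excess, in 21 control cells (0.687%, 1.88 times the product, 1.17 to 2.87) and 46 STAT5 KO cells (0.758%, 3.20 times, 2.34 to 4.26). Cd34 with Cd48 (1.07 and 1.08 times) and Cd34 with Cd27 (1.06 and 1.07 times) were also above the product in both libraries, by a small margin. The STAT5 KO library holds more cells, so its intervals are narrower.

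In 4 pairs of Slamf1 or Esam with Cd34, Cd48 or Cd27 the interval lay below the product in both libraries. Cd48 with Slamf1 was found at 0.646 times the product in control (0.445 to 0.905, 33 cells) and 0.520 times in STAT5 KO (0.390 to 0.679, 53 cells). Cd48 with Esam stood at 0.597 (0.482 to 0.731) and 0.619 (0.520 to 0.731) times. Cd34 with Slamf1 (0.662 and 0.582 times) and Slamf1 with Cd27 (0.657 and 0.667 times) were the other two. Cd34 with Esam included the product in control (0.914 times, 0.807 to 1.03), and Cd27 with Esam did in STAT5 KO (0.918 times, 0.801 to 1.05). Ptprc was within counting error of the product with 6 of 6 partners in control and above it in STAT5 KO with Cd34 (1.03 times) and Cd27 (1.05 times).

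**Figure D4:**
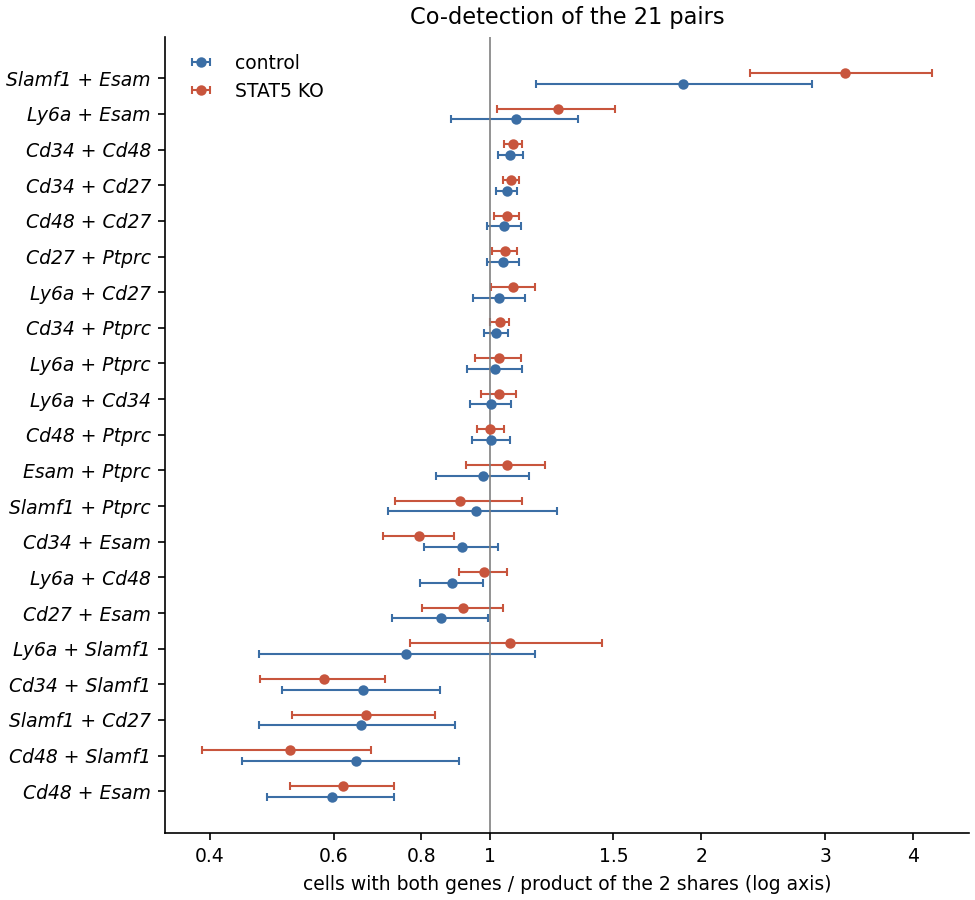
Share of thinned cells with both genes over the product of the 2 single shares, for 21 pairs, on a log axis, with exact 95% intervals of the joint share. Slamf1 with Esam lies at 1.88 in control and 3.20 in STAT5 KO, and the 4 lowest rows all pair Slamf1 or Esam with Cd34, Cd27 or Cd48.

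Across the states with at least 50 cells, 9 points over both libraries, the same grouping appeared in the levels. Pearson's r of log2(CPM + 10) was 0.92 between Slamf1 and Esam, 0.97 between Cd34 and Cd27, -0.84 between Cd48 and Slamf1 and -0.79 between Cd48 and Esam. The points share libraries and the gates differ in depth, so these are descriptions. Of 10153 genes with at least 500 UMIs, those most like each gene were Hivep3, Lpin1 and Haghl for Ly6a, Tespa1, Prdx2 and Fcho1 for Cd34, Igfbp4, Paox and Egln3 for Cd48, and Prkg1, Mtss1l and Cpped1 for Slamf1. Sox4, Gpr171 and Rcsd1 came nearest to Cd27, Pdzk1ip1, Tie1 and St3gal1 to Esam, and Zfp704, Mylip and Mcoln2 to Ptprc. Their r ranged from 0.97 (Egln3, Mcoln2) to 0.99 (Tespa1).

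Slamf1 and Cd48 are neighbors on chromosome 1 and were detected together in fewer cells than the product of their shares. Their promoter windows are therefore shown. The RefSeq windows (GRCm38.p6) are printed from 250 bases before to 20 bases after the start. These are chr1:171681742-171682011 for Cd48 and chr1:171766882-171767151 for Slamf1, both on the plus strand. Capitals mark a match to the ETS core GGAAGT on either strand.
Cd48: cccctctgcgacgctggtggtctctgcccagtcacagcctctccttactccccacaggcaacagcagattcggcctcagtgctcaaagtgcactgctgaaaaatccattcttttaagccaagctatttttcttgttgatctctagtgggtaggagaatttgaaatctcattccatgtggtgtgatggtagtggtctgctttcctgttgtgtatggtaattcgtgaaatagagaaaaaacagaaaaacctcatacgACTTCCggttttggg
Slamf1: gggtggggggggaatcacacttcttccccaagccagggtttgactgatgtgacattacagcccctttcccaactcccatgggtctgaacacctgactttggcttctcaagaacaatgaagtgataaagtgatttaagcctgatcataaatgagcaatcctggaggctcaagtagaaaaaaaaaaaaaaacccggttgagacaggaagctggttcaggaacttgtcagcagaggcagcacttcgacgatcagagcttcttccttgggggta
Matches were counted in windows that run on to 50 bases after the start, for these genes and for all promoters. No window was available for Ly6a and Esam. The Cd48 window holds 1 such match and the Slamf1 window none, and 23.8% of 32851 promoters hold one. The STAT motif TTCNNNGAA, which reads the same on both strands and does not overlap the ETS core here, was found in neither window, nor in those of Cd34, Cd27 and Ptprc, and 8.30% of promoters hold it. The GATA letters AGATAA, searched on both strands, gave 1 match, in a Ptprc window, and 11.2% of promoters hold them. A match is only a run of letters, and its lack says nothing of the factor.

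By detection of Slamf1 and Cd48 the thinned cells fell into 4 classes that follow the antibody scheme. Slamf1 without Cd48 was seen in 74 cells of the control library, or 2.42% (1.90 to 3.03), and in 149 STAT5 KO cells, or 2.46% (2.08 to 2.88), both genes in 1.08% and 0.873%, Cd48 alone in 46.7% and 49.6%, and neither in 49.8% and 47.1%. The share of the Slamf1-only class depended on the random thinning: as an expectation over all thinnings it was 2.69% and 2.27%. The difference was 0.04 percentage points (-0.63 to 0.71) as given, and with another seed it was -0.80 (-1.51 to -0.0952), so the class is not shown to be equal or unequal. Because no UMI is not absence of protein, the neither class is a detection limit rather than a cell type.

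The Slamf1-only class carried stem and megakaryocyte transcripts in both libraries. Mecom, a stem cell transcription factor, stood at 139.2 CPM in Slamf1-only and 48.7 CPM in Cd48-only cells of control, and at 188.7 and 45.2 CPM in STAT5 KO. Procr, which encodes the stem cell surface receptor EPCR, was at 39.9 against 13.8 CPM in control and 57.5 against 9.07 CPM in STAT5 KO. Flt3, a receptor of lymphoid-leaning progenitors, had the reverse order, with 31.7 against 187.1 CPM and 20.2 against 150.5 CPM. Mpo, a granule enzyme, was lowest in the class as well, at 54.3 against 705.4 CPM in control and 173.7 against 1242 CPM in STAT5 KO.

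In the Slamf1-only class, 12.2% of control and 10.7% of STAT5 KO cells passed the Pf4 gate. The stem triad gate took 12.2% and 11.4%, and the Dntt gate 2.70% and 7.38%. Transcript levels summed over the class were less alike in the 2 libraries for some genes. Pf4 reached 663.4 CPM (613.3 to 716.5) in the control class, against 233.8 CPM (210.2 to 259.3) for STAT5 KO, while Vwf, a clotting factor of megakaryocytes and of platelet-leaning stem cells, stood at 67.6 CPM (52.3 to 86.0) and 224.0 CPM (200.9 to 249.0). The Pf4 levels sum 648 UMIs of 74 control cells and 358 UMIs of 149 STAT5 KO cells. Of these cells, 9 and 16 passed the Pf4 gate, and the intervals take no account of how UMIs spread over cells. Within this class the summed levels of Pf4 and Vwf thus differed in opposite directions between the libraries. Over all kept cells both were higher in STAT5 KO, Pf4 at 54.3 and 83.6 CPM and Vwf at 7.57 and 17.5 CPM, and in the neither class Pf4 was at 61.4 and 152.3 CPM. Stat5a and Stat5b together were at 160.7 (control) and 95.3 CPM (STAT5 KO) in this class, so that STAT5 KO held 59.3% (47.0 to 74.8) of the control level. In the Cd48-only class the figure was 4.12% (3.54 to 4.77), from 123.0 and 5.07 CPM, and in the neither class 10.4% (9.41 to 11.4). In cells with both Slamf1 and Esam it was 66.5% (43.8 to 101.6), on 21 and 46 cells. The part of the remaining Stat5 transcript in the other values of the Slamf1-only class was not tested.

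**Figure D5:**
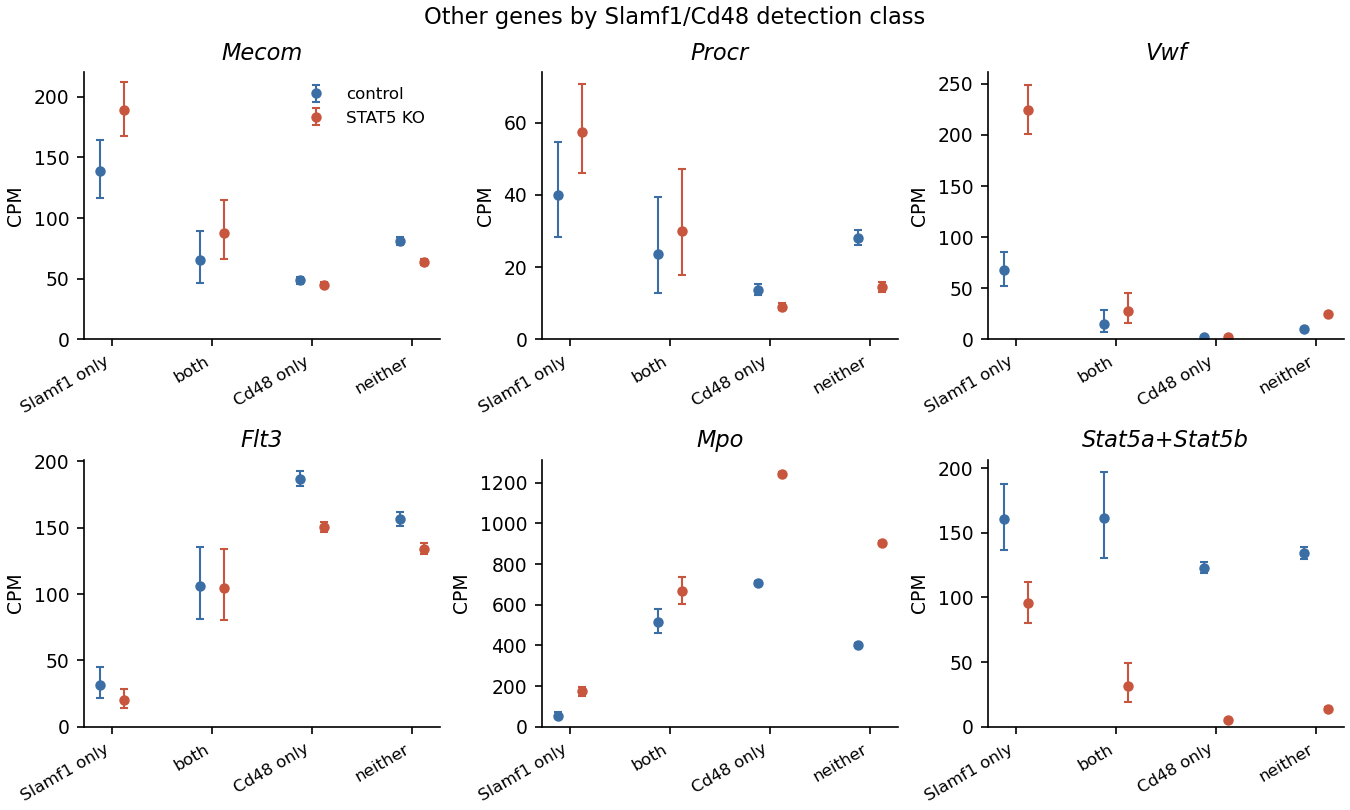
CPM of 5 genes and of Stat5a plus Stat5b in the 4 classes by Slamf1 and Cd48 detection, control in blue and STAT5 KO in red, with exact Poisson 95% intervals. Mecom, Procr and Vwf peak in the Slamf1-only class, Flt3 and Mpo are lowest there, and Stat5 transcripts of STAT5 KO are highest there at 95.3 CPM.

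The number of the 7 genes seen per thinned cell was also counted. A single cell most often showed 3 of them, in 35.2% of control and 33.3% of STAT5 KO cells. None was seen in 2.42% (1.90 to 3.03) and 3.41% (2.97 to 3.90). No cell showed all 7, which allows shares of up to 0.0981% of 3058 and 0.0494% of 6068 cells.

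A list of 50 other surface genes used on blood stem and progenitor cells gave the wider background. Of these, 44 had at least 50 UMIs, 6 were lower past 1.5-fold in STAT5 KO, against 2.51% of all genes, and none was higher, against 1.1%. The median log2 ratio (CPM + 1) of the list was -0.15, beside -0.01 for all genes, with 29 below and 15 above 0. Among the lowest ratios were those of Ly6d (-1.51), a marker of B-lineage-primed progenitors, Il7r (-0.81), the interleukin-7 receptor, Robo4 (-0.80), a guidance receptor of stem cells and endothelium, and Jam3 (-0.67), a junction protein. Procr, at 21.3 and 13.2 CPM, also passed the threshold. The 5 highest ratios, all under 1.5-fold, were those of Itgb3 (0.51), Itgal (0.47), Cxcr4 (0.25), Fcgr2b (0.19) and Itga6 (0.18). Ly6a and Esam thus lay short of the 6.

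The MSC libraries, depleted of CD45-positive cells, gave a comparison for the blood genes. After filtering they held 577 control and 374 STAT5 KO cells, at medians of 2732 and 2496 UMIs. Stat5a and Stat5b together stood at 90.1 CPM in MSC control and 101.7 CPM in MSC STAT5 KO. Their log2 ratio was 0.17 (-0.18 to 0.52), so Stat5 transcript was not shown to be lower in MSC STAT5 KO, whose name gives the genotype. Blood transcripts remained in both MSC libraries and differed between them. The erythroid marker Hba-a1 stood at 7214 CPM in control and 3646 in STAT5 KO, and 4 myeloid genes summed to 11.4 and 1122 CPM. Ptprc stood at 3.99 and 5.84 CPM in these MSC libraries. A Cd48 UMI was found in 0 of 577 control cells, which allows a share of up to 0.520%, and in 4 of 374 STAT5 KO cells. Cd27 stood at 18.3 and 3.34 CPM and Esam at 6.85 and 4.17 CPM. Slamf1 was at 6.85 CPM (3.54 to 12.0, 12 UMIs) and 6.67 CPM (2.88 to 13.1, 8 UMIs), intervals that include its whole-library levels in KLS cells, 8.82 and 7.16 CPM. Whether these UMIs are free RNA was not tested. Ly6a, whose protein was again part of the sort, stood at 601.3 and 410.3 CPM, and Cd34 at 369.1 and 216.8 CPM. These 2 markers were therefore not particular to blood cells in these data.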

How the data were processed

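The deposited matrices hold raw UMI counts per gene and cell barcode, made with Cell Ranger per the submitters' processing notes, which name GRCm38 and mm10. The file headers give software version 3.1.0. The strand rule of the counting is not given in the sources used here, so overlapping and antisense genes cannot be told apart. Of the identifiers, 31011 were found in GENCODE M21.

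A cell needed 200 or more genes and no more than 10% mitochondrial UMIs. The highest Scrublet scores (scanpy 1.11.5) were left out at 0.8% of barcodes per 1000 barcodes, because the automatic threshold marked at most 1 barcode per library. Barcodes with more UMIs in another library were left out. Counts were summed over cells and scaled to CPM. Shares and classes used cells thinned to 4600 UMIs, the 10th percentile of the shallower KLS library rounded down to a multiple of 100. Sums have exact Poisson, shares exact Clopper-Pearson and ratios exact conditional binomial 95% intervals, and differences of shares have a normal approximation. Where a share was 0, the limit is 3 counts of the total. There was no test, since each group is 1 library. Free RNA was not corrected for.

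The 7 genes, gates and lists were chosen with earlier results of these data known. Named genes are the 7, the genes of gates, classes and marker lists, the 5 highest and 5 lowest ratios of the surface list (1 gene of these is not reported here), and the 3 genes most like each of the 7. The ratios were tested on simulated data. Alternatives covered the cell filter, doublets, shared barcodes, edgeR 4.0.16 TMM factors, cell weighting, thinning, gates, pseudocounts and UMI minimums. Python 3.11.15, numpy 2.4.6, scipy 1.17.1 and R 4.3.3 were used.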

Additional observations from a re-analysis of the deposited data

Results flagged for a closer look

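Slamf1 in stem triad cells had a log2 ratio of STAT5 KO over control of 1.16 (0.36 to 1.99), while in no-gate cells it was -0.31 (-0.53 to -0.10) and in granule triad cells -2.03 (-4.21 to -0.13). The value stands out because the counting intervals of states lie on opposite sides of 0. The difference between the states was not tested. The gate genes Hlf, Mecom and Procr were themselves lower in STAT5 KO over all kept cells. Whether the gate takes like cells from both libraries was not tested either. Thinned, 7.30% (3.56 to 13.0) of control and 14.6% (9.03 to 21.9) of STAT5 KO stem triad cells had a Slamf1 UMI, intervals that overlap. The stem triad log2 ratio rests on 22 and 37 UMIs in 137 and 130 cells. With doublets kept or the Dntt and Pf4 gates set at 1 or 3 UMIs it lay between 1.09 and 1.48.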

How the results depend on the processing

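Of 187 recomputed values of 30 results, 144 stayed within the counting interval of the value reported (or within 1.5 times a count), 40 moved and 3 reversed. No paired analysis was possible because each group is 1 library, and no library could be left out. The cell filter set at 1000 genes and 5% mitochondrial UMIs gave log2 ratios of -0.31 for Ly6a and -0.00958 for Cd48. The mean of single-cell CPM gave -0.52 and 0.10, and TMM factors gave -0.19 for Cd34. Several alternatives were added after the data were seen. STAT5 KO cells with no Stat5 UMI gave -0.16 for Cd34, 0.0776 for Cd48, -0.94 for Slamf1, -0.11 for Cd27 and -0.90 for Esam. Counts capped at 5 UMIs per cell gave -0.35 for Ly6a, 0.22 for Cd48 and 0.0830 for Ptprc, and reversed Cd34 to 0.28 and Cd27 to 0.0151. This cap acts on libraries whose cells have medians of 15136 and 10085 UMIs, and thinned counts with the same cap gave -0.58 for Ly6a, 0.0785 for Cd48, -0.0240 for Slamf1 and -0.0475 for Ptprc, with Cd34 and Cd27 again below 0. Without thinning 7 genes, in place of 3, had a share interval below that of control, and the Cd48 share difference reversed to -2.95 percentage points. The difference of the Slamf1-only class was 0.04 percentage points, and it was -0.70 when thinned to 8000 UMIs, -0.80 with another seed and -0.63 with doublets kept. The class with both genes stood at -0.92 when thinned to 8000 UMIs. A pseudocount of 10 CPM left 41 genes higher and 56 lower past 1.5-fold, in place of 141 and 322, and 1 in place of 6 surface genes. Several settings, among them the caps, thinning and doublets, change the cells or counts used by construction. The causes of the moved and reversed values were not tested.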
